A study of Mus musculus with 6 samples.

Results

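The 10 genes described here encode regulators of B cell receptor signalling, most of them brakes. They are the inhibitory receptors Cd22, Siglecg, Cd72, Lair1, Pirb and Cd5, the phosphatases Ptpn6 (SHP1), Ptprc (CD45) and Ptpn22, and the adaptor Dok3. They were taken by name, with earlier results of these data known, from the 21887 protein-coding genes of the annotation. Open chromatin was mapped in B220+CD93+ immature B cells from mouse spleen by ATAC-seq, an assay that uses the Tn5 transposase to tag accessible DNA. All mice were Tcrd-GDL, a reporter line whose γδ T cells express a receptor for diphtheria toxin, so the untreated group has the same alleles as the treated one. The untreated group has 3 libraries. The other 3 libraries, called DTx, are from mice given diphtheria toxin in 2 intraperitoneal doses of 15 ng/g body weight, 48 h apart, and analysed on day 8 counted from the first dose. The ages of the mice were not given in the labels, nor whether each library came from its own mouse, and the p-values therefore reflect only how far these 6 libraries scatter, which may be technical. The design does not separate the loss of γδ T cells from other effects of the toxin.

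Inhibitory receptors carry tyrosine motifs (ITIMs) in their cytoplasmic tails. When the B cell receptor is engaged, the kinase Lyn phosphorylates these motifs, which then recruit phosphatases such as SHP1 that dampen the signal. CD22 and Siglec-G bind sialic acids, CD72 binds the semaphorin CD100, LAIR1 binds collagens, and PIR-B binds MHC class I. CD5 lacks a classical ITIM, marks B-1 cells and anergic B cells, and is also a pan-T cell marker. CD45 removes the inhibitory phosphate of Src-family kinases and so also permits signalling, PTPN22 acts on Src- and Syk-family kinases, and DOK3 is an adaptor that recruits inhibitors of calcium signalling. In immature B cells, the strength of receptor signalling decides between survival and tolerance.

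What was deposited is 1 peak list per library, so a peak is present or absent in a list and has a strength, here the within-list percentile of the −log10 q that the authors' peak caller gave it (100 is the strongest). The untreated lists held 36760, 42504 and 56503 peaks and the DTx lists 44661, 56266 and 60811. Read totals were not among the data used here, so the depth is unknown and absence from a list is not absence of open chromatin. In 2 lists, untreated 3 and DTx 1, peaks were called with summits (narrow layout), and in the other 4 without (broad layout). Merged over the lists, the peaks made 70174 regions, of which 30954 were in all 6 libraries. The B cell marker genes Cd79a, Cd79b, Ms4a1, Pax5, Ebf1, Cd93 and Blk each had a peak within 1 kb of a gene end in all 6 libraries. Of all protein-coding genes, 49.2% had one in all 6. Of 6 T cell markers with an entry in the annotation, Cd247 and Cd28 had one in all 6 libraries, at or below the 64.4th percentile. Cd4 had one in 2 untreated and 2 DTx libraries, at the 13.0th to 38.0th, Cd3g in DTx 3 only, and Cd3e and Cd8a in none. Of 8 myeloid markers, none had one in all 6 libraries, and Lyz2, Adgre1, Mpo, Elane, Csf3r and Ly6g had none in any. Csf1r had one in 3 untreated and 1 DTx libraries, at or below the 14.5th percentile, and Itgam in 2 untreated and 3 DTx libraries, at the 31.7th to 62.7th. The number of T cell markers with a peak was 2, 3 and 3 in the untreated libraries and 2, 3 and 4 in the DTx libraries, and that of myeloid markers 1, 2 and 2 against 1, 1 and 2. These counts bear on the gene list because several of its genes, Cd5, Lair1, Pirb and Ptpn22 among them, are also used by T cells or myeloid cells. The part of such cells in the values below was not tested. A different share of cells of one type and a different chromatin state in each cell cannot be told apart in such lists.

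All 10 genes have a start site in the RefSeq promoter table (GRCm38.p6, the build of mm10), given as a window of 300 bases from 250 before to 50 after the start. The 7 windows below are printed because they show the contrasts among the genes. They are the strongest receptor start site (Siglecg) and the other receptors with a start-site peak in every library (Cd22, Cd72, Cd5, Pirb). The last are the 2 genes that had no peak, or only weak ones, over the annotated start (Ptpn6 and Lair1). Each is read 5′ to 3′ on the strand of the gene, and capitals mark matches to the motifs named after them.

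Cd22, chr7:30878979-30879278, minus strand: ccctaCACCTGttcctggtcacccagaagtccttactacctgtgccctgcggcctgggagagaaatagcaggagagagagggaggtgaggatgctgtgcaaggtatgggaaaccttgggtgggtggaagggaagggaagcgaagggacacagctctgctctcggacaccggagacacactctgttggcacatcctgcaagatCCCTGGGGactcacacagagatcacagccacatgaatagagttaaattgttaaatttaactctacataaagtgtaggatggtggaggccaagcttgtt

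Siglecg, chr7:43407989-43408288, plus strand: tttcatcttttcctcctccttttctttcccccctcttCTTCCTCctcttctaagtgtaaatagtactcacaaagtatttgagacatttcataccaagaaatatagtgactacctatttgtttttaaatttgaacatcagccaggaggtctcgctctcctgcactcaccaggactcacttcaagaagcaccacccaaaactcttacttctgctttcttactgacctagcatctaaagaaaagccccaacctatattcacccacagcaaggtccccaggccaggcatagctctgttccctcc

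Cd72, chr4:43454577-43454876, minus strand: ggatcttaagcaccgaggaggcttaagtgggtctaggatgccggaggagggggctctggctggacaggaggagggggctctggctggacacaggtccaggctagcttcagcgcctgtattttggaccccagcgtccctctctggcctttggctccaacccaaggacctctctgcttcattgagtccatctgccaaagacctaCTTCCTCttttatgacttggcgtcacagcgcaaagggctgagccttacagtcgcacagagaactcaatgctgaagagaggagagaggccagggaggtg

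Lair1, chr7:4063155-4063454, minus strand: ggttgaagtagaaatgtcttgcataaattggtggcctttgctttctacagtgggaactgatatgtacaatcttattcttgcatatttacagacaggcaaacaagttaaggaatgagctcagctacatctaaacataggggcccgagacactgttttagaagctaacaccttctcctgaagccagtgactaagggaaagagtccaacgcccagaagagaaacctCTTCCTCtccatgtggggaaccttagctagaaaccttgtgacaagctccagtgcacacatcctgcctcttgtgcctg

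Pirb, chr7:3720333-3720632, minus strand: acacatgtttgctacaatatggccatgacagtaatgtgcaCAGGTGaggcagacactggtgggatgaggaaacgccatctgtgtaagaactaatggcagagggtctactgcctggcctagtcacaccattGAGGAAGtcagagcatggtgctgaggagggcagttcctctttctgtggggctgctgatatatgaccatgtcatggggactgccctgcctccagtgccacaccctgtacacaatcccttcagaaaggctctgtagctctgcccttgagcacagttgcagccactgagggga

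Cd5, chr19:10738925-10739224, minus strand: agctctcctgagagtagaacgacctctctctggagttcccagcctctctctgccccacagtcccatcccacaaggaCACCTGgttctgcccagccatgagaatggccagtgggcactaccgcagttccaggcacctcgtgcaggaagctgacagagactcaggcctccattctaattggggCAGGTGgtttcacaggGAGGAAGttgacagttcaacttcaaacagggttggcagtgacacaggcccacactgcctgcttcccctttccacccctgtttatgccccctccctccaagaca

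Ptpn6, chr6:124738660-124738959, minus strand: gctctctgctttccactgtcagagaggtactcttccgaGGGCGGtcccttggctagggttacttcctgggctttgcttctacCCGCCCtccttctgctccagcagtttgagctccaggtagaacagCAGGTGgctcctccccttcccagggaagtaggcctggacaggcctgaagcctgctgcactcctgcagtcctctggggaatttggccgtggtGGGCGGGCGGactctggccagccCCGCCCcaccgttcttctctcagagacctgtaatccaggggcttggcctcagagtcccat

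The motifs were searched as exact letters on both strands: GAGGAAG for PU.1 (an ETS factor), CCGGAAG for other ETS factors, ATTTGCAT for the octamer, CCCNNGGG for EBF1, CAGGTG for the E box of E2A, TGTGGT for RUNX, GGGCGG for the GC box, TATAAA for the TATA box and TGACGTCA for CRE. The PU.1 letters were found in 6 of the 10 genes (Cd72, Siglecg, Lair1, Pirb, Cd5 and Ptpn22), against 15.5% of all genes with a window. Counted from the start site, the match begins at −9 in Ptpn22, −48 in Cd72, −53 in Cd5 and −27 in Lair1. It lies farther out in Pirb and Siglecg, at −120 and −213. The E box letters were found in 4 genes (Cd22, Ptpn6, Pirb and Cd5, the last with 2 matches), against 22.1%. The EBF1 letters were found in Cd22 alone among the 10, at −48, against 17.6% of all genes. RUNX letters occurred in Ptpn22 (3 matches, 17.2% of all genes), the TATA box letters in Ptprc and Ptpn22 (14.8%), and the GC box in Ptpn6 (5 matches), which 49.2% of all genes hold. The other ETS letters, the octamer and CRE were in none of the 10 genes, against 12.9%, 1.90% and 2.54% of all genes. A match is a description of the letters, not of a bound site.

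The start-site windows of the 10 genes all had a CpG ratio below the median, by different margins. Their percentiles among all windows ran from 4.98 (Pirb) to 44.4 (Ptprc). Their 13 windows (Ptprc, Ptpn22 and Siglecg have more than 1 start) had an observed over expected CpG ratio between 0.0471 (Pirb) and 0.481 (Ptprc), and all 13 lie below the median of 0.567 over the 21263 windows of the table. The GC content ranged from 33.7% (Ptprc) to 61.7% (Ptpn6), around the median of 56.3%.

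A peak covered the start-site window in 6 of 6 libraries for 8 of the 10 genes, against 8471 of 17492 genes (48.4%) overall. The plot of peak strength by gene and library shows these values beside those of the peaks at gene ends.

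**Figure D1:**
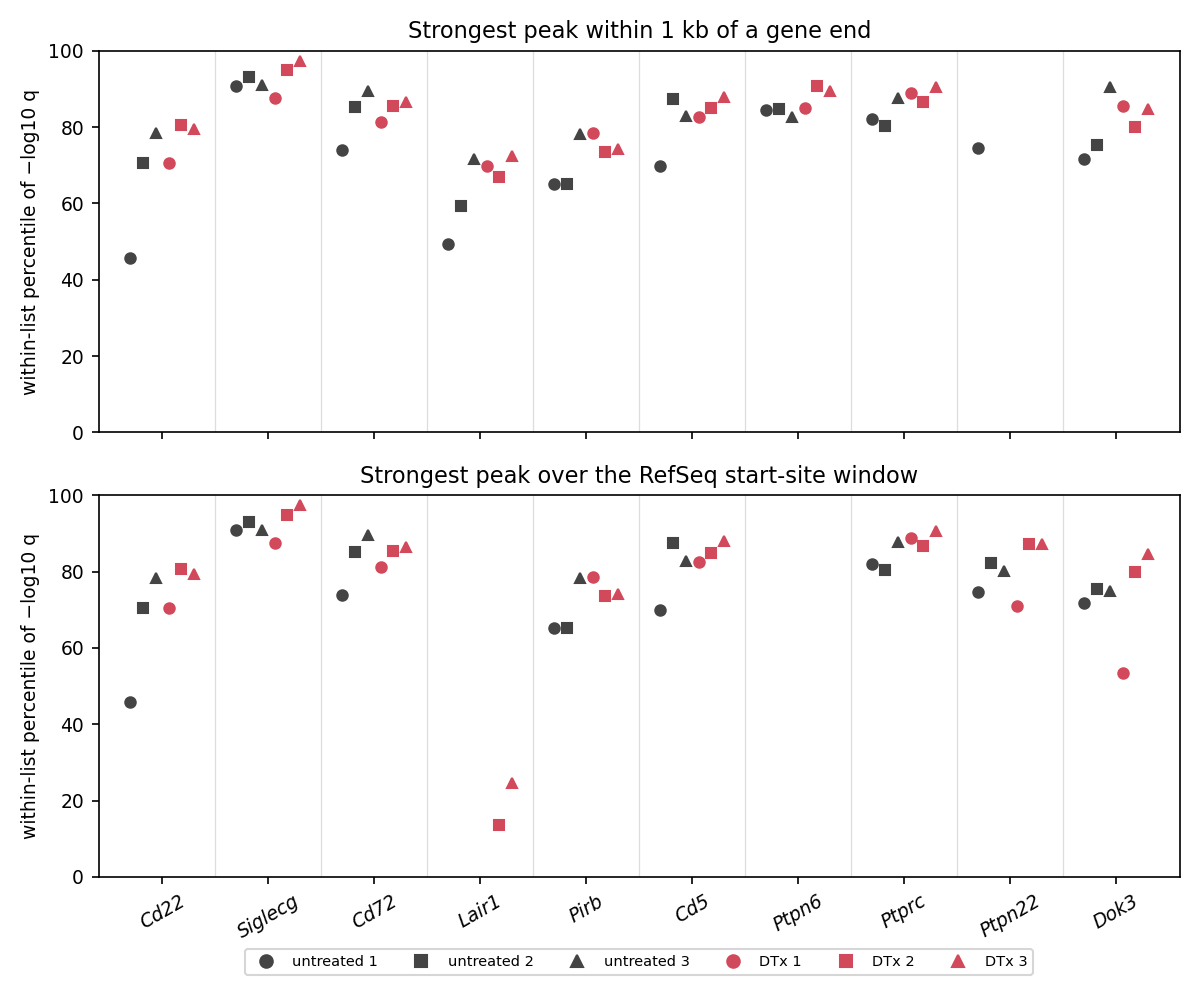
Within-list percentile of −log10 q (y axis, 100 is the strongest peak of a list) of the strongest peak within 1 kb of either gene end (upper panel) and over the RefSeq start-site window (lower panel) for each gene (x axis). Points are single libraries, grey for untreated and red for DTx, and a missing point means no peak. Siglecg, between 87.6 and 97.4, lies highest in 5 of the 6 libraries, with Ptprc higher in DTx 1 (88.9), Ptpn6 has gene-end points but no start-site point, and Lair1 has start-site points in 2 DTx libraries only.

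Among the sialic acid receptors, Siglecg, on chr7 at 43408192-43418349, had the strongest start-site peak of the 10 genes in 5 of 6 libraries, the exception being DTx 1, where that of Ptprc was stronger. Its peak stood at percentiles 90.8, 93.0 and 90.9 in the untreated libraries and 87.6, 94.9 and 97.4 in the DTx libraries. Cd22, on the same chromosome at 30865404-30880342, had a weaker start-site peak, at 45.7, 70.5 and 78.4 in untreated and 70.5, 80.6 and 79.4 in DTx libraries. The low value was that of untreated 1, the shortest list. Ranked only among the regions in all 6 libraries, this start-site region was still lowest in untreated 1, at 36.7, and between 57.9 and 65.0 in the other lists. The strongest region of Cd22 was not its start but lay 8.21 kb upstream (30887236-30888219), nearest to the start of Cd22, and reached the 86.9th percentile or higher in all 6 libraries. A comparable region lay 15.1 kb upstream of Siglecg (43392171-43393188), nearest to the start of Siglecg, at the 86.9th percentile or higher.

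Cd72, the receptor for CD100, lies on chr4 at 43447724-43455102. Its start-site peak was at 73.9, 85.2 and 89.5 in untreated and 81.3, 85.5 and 86.5 in DTx libraries. Regions 1.92 and 10.9 kb upstream, both nearest to the Cd72 start, were in all 6 libraries too, with lowest percentiles of 45.2 and 18.7. The strongest region within 50 kb, at the 94.6th percentile or higher, was nearest to the start of another gene, Ccdc107.

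Pirb, the MHC class I receptor, lies on chr7 at 3712505-3720382. Its start-site peak was at 65.1, 65.1 and 78.3 in untreated and 78.5, 73.6 and 74.2 in DTx libraries. It was the only region in all 6 libraries of the Pirb window that was nearest to the start of Pirb. The strongest of the other 4 such regions lay at the start of Leng1, at the 98.2nd percentile or higher.

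Cd5, on chr19 at 10718107-10739026, had its start-site peak at 69.9, 87.4 and 82.8 in untreated and 82.6, 84.9 and 88.0 in DTx libraries. A second region nearest to its start lay 1.11 kb upstream (10740083-10741120), at the 67.2nd percentile or higher in all 6 libraries. These 2 were the only regions of its window in all 6 libraries that were nearest to the Cd5 start.

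Lair1, the collagen receptor, on chr7 at 4007073-4073567, differed from the other receptors in where it was open. No untreated list had a peak over the start-site window printed above, and DTx 2 and DTx 3 had 1 at the low percentiles of 13.5 and 24.7. Across all windows, 0.207% had a peak in 2 or 3 DTx libraries and in no untreated library. This Lair1 peak was not in the equal-length lists, made of the 36760 strongest peaks of each library, so it was among the weak peaks of its lists. The deposited list of untreated 3 had no peak there, though at 56503 peaks it was longer than that of DTx 2 (56266). The cause of the difference was not tested. The region in all 6 libraries nearest to the start lay 1.82 kb inside the gene (4060646-4061388), at the 57.6th to 83.5th percentile. The annotated gene reaches 10.4 kb farther upstream than the RefSeq start, and a peak stood at that far end at 49.3, 59.2 and 71.6 in untreated and 69.7, 66.9 and 72.5 in DTx libraries. The strongest Lair1 region lay 19.3 kb upstream of the start (4082482-4083422), at the 74.1st percentile or higher.

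Ptpn6, which encodes the phosphatase SHP1 that ITIMs recruit, lies on chr6 at 124720707-124738709. No library had a peak over the RefSeq start-site window printed above. Ptpn6 is known to have an epithelial promoter and, farther downstream, a haematopoietic one. In all 6 libraries, peaks lay inside the gene 5.10 kb downstream of the annotated start (124732824-124733612, at the 76.5th to 87.5th percentile) and 8.12 kb downstream (124729733-124730594, at the 84.5th to 92.6th). The peak within 1 kb of a Ptpn6 gene end was at its 3′ end, 17.1 kb downstream of the Ptpn6 start, and the nearest start was that of Phb2, 8.5 kb away. Which gene it belongs to was not tested. Upstream, the nearest region in all 6 libraries lay 1.63 kb from the start, at the 91.1st percentile or higher, and was nearest to the start of Grcc10.

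Ptprc, on chr1 at 138062859-138175756, encodes CD45, the receptor phosphatase from which the B220 antigen of the sort derives. Its start-site peak was at 82.1, 80.4 and 87.7 in untreated and 88.9, 86.7 and 90.5 in DTx libraries. It was the only one of the 10 genes for which all regions in its window, 29 of 29, were nearest to its own start. Of these, 7 were in all 6 libraries. The strongest lay inside the gene 38.0 kb from the start (138136269-138137166, at the 87.9th percentile or higher) and 16.3 kb upstream (138191631-138192614, at the 87.0th or higher). Another 10 regions were in 1 library only.

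Ptpn22, the phosphatase of Src- and Syk-family kinases, on chr3 at 103856575-103912252, was the only gene of the 10 without a gene-end peak in 6 libraries. It had one in untreated 1 alone, at the 74.6th percentile. Its RefSeq start, however, lies 3.22 kb inside the annotated gene, and there a peak was present in all 6 libraries, at 74.6, 82.2 and 80.2 in untreated and 71.0, 87.1 and 87.3 in DTx libraries. The region is wide, and the untreated 1 peak alone reaches to within 1 kb of the gene end. Regions 7.02 and 12.3 kb downstream of the start, inside the gene, were in all 6 libraries at the 75.4th percentile or higher.

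Dok3, the adaptor, lies on chr13 at 55523231-55530345. Its start-site peak was at 71.7, 75.4 and 75.0 in untreated and 53.3, 80.0 and 84.7 in DTx libraries. Over this window DTx 1 gave the lowest value and DTx 3 the highest. The whole start-site region is 2275 bp wide, and its strongest peak was higher in the 2 narrow-layout lists, at 90.3 in untreated 3 and 85.5 in DTx 1. Of its 7 regions within 50 kb, 6 were in all 6 libraries, and the start-site region was the only one of them nearest to the start of Dok3. The strongest, at the 92.2nd percentile or higher, was nearest to the start of Ddx41.

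By the median of the gene-end percentile over the 6 libraries, the order was Siglecg (91.9), Ptprc (87.2), Cd72 (85.3), Ptpn6 (84.8, at its 3′ end), Cd5 (83.9), Dok3 (82.4), Cd22 (74.4), Pirb (73.9) and Lair1 (68.3). The ranges of each pair of neighbours in this order overlapped. Gene-end peaks were present in all 6 libraries for these 9 of 10 genes, against 49.2% of all protein-coding genes, with the Ptpn6 peak counted although it lies at the 3′ end. These percentiles are ranks in lists of unequal length, so no difference between the groups is read from them.

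The 10 genes and 50 kb to each side held 147 regions, of which 70 (47.6%) were in all 6 libraries and 29 (19.7%) in 1 only. Over all 70174 regions the shares were 44.1% and 18.2%. Of the 29, 14 were in DTx 3 only, the longest list. The number of regions in all 6 libraries ranged from 5 (Cd22, Lair1, Pirb and Cd5) to 11 (Ptpn6), and it includes regions that lie at the starts of neighbouring genes, since 69 of the 147 were nearest to the start of the gene itself.

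**Figure D2:**
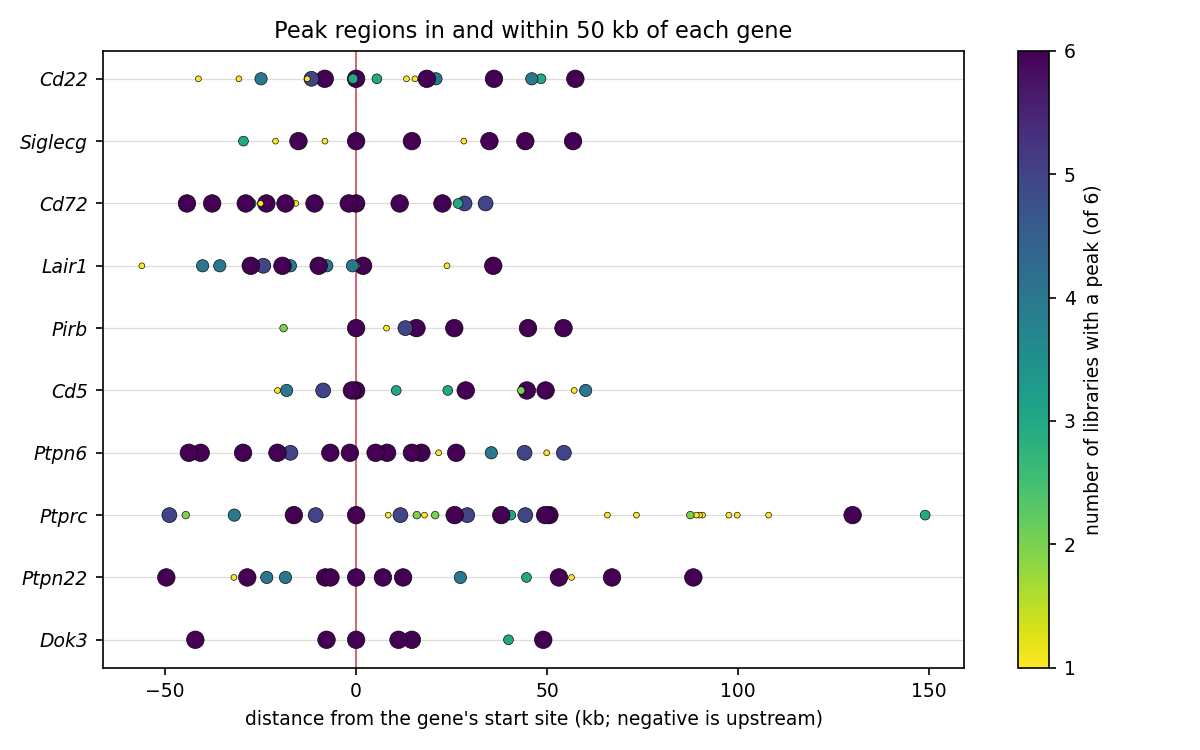
Each point is a region with a peak in at least 1 library, inside the gene or up to 50 kb away, at its distance in kb from the start site of the gene (x axis, negative is upstream). Larger and darker points were called in more of the 6 libraries. Regions in all 6 lie over the start for 8 genes, but not for Lair1 and Ptpn6, and the single-library points of Ptprc lie mostly far downstream in the gene.

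Between untreated and DTx libraries, no gene of the 10 passed the test on the number of peaks in and within 50 kb of the gene, nor on the bases these peaks cover. Both were fitted with limma over 12570 genes on the equal-length lists, so that a longer list could not give more peaks. Shortening cut the lists at different strengths. The lowest −log10 q kept was 1.02, 2.99 and 19.7 in the untreated lists and 9.26, 6.0 and 8.1 in the DTx lists. Presence in these lists is therefore not judged at a common strength. Over all genes tested, 0.0% passed for the number of peaks and 0.0% for the bases (Benjamini-Hochberg adjusted p under 0.05), with 342 and 114 genes at an unadjusted p under 0.05. Alternative settings passed between 0 and 116 genes for peaks and between 0 and 10 for bases. All 10 genes were among those tested. On the number of peaks, 6 of the 10 had a positive log2 difference, with a median of 0.03 against 0.01 over all genes, and on covered bases 4 of the 10, with a median of −0.06 against −0.02.

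The windows of these genes differed in how many peaks they hold. By the mean over the 6 equal-length lists, Cd72, Ptpn22 and Ptpn6 were at percentiles 95.7, 94.3 and 93.9 of the genes tested, Ptprc at 85.4, Cd22 at 69.2 and Lair1 at 67.4, and Siglecg, Dok3, Cd5 and Pirb between 59.5 and 48.1. Cd72 had 10, 12 and 13 peaks in untreated and 13, 12 and 15 in DTx libraries, and Cd22 had 6, 7 and 9 against 6, 7 and 10. Siglecg had 7, 6 and 6 against 7, 7 and 7. For 8 of the 10 genes the groups overlapped, with log2 differences from −0.31 ± 0.18 (SE) at Cd5 to 0.19 ± 0.14 at Cd72.

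Ptpn22 had the smallest unadjusted p of the 10. Its window held 10, 10 and 10 peaks in untreated and 13, 13 and 15 in DTx libraries (10 ± 0 against 13.67 ± 1.15, SD, n = 3 each), and the exact two-sided permutation p was 0.1, the smallest that 3 libraries against 3 can give. The groups did not overlap, with DTx higher, as for 1.41% of all genes tested. The log2 difference was 0.43 ± 0.13 (SE), with an unadjusted limma p of 0.00302 and an adjusted p of 1.0. In the deposited lists, not shortened, the counts were 10, 10 and 15 against 13, 16 and 15, so the groups overlapped. The equal-length lists held a region 18.5 kb upstream (103840990-103841335, nearest to the start of Bcl2l15) in 3 of 3 DTx and 0 of 3 untreated libraries, and regions 27.3 and 44.6 kb downstream of the start, inside Ptpn22 but nearest to the start of Rsbn1, in 2 of 3 DTx and 0 of 3 untreated. In the deposited lists, however, untreated 3 also had all 3 of these regions. Covered bases did not separate the groups, with 8208, 6861 and 8306 bp in untreated and 7813, 7768 and 9958 bp in DTx libraries.

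**Figure D3:**
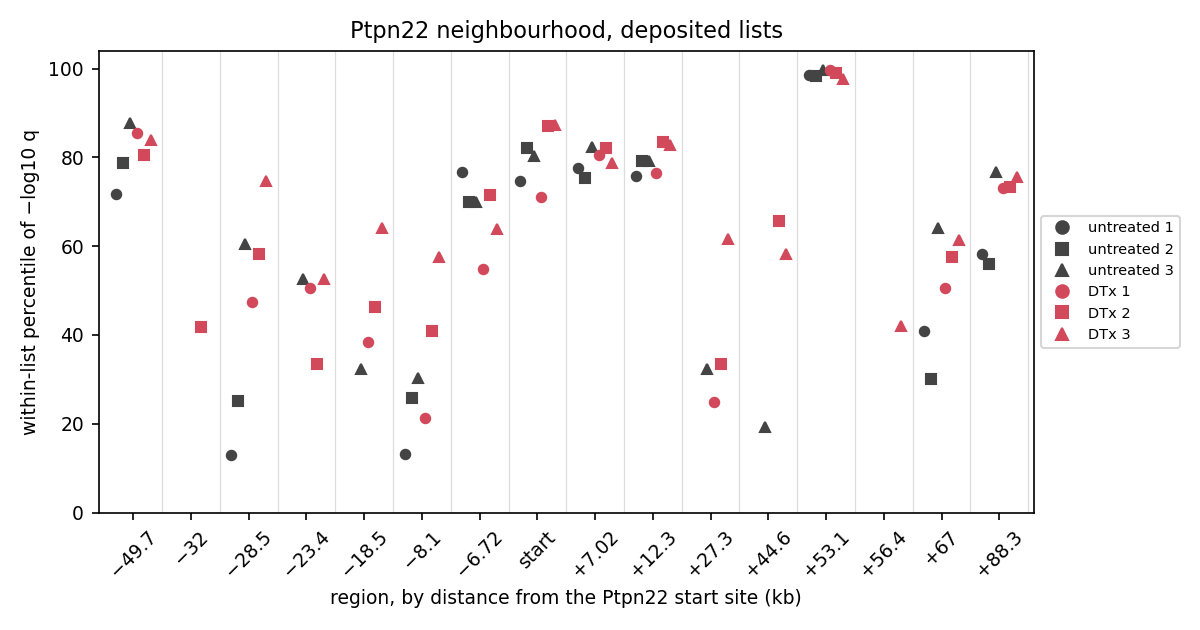
Within-list percentile of −log10 q (y axis) in the deposited lists for each region of the Ptpn22 window (x axis, in order of position, labelled by distance from the start site in kb). Points are single libraries, grey for untreated and red for DTx. The start site and the regions 7.02 and 12.3 kb downstream have all 6 points, while the region at 18.5 kb upstream has 3 DTx points and 1 untreated point, that of untreated 3.

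Ptprc was the only other gene whose peak counts did not overlap, at 10, 10 and 10 in untreated and 9, 9 and 9 in DTx libraries, a pattern of 0.859% of all genes in that direction. The log2 difference was −0.14 ± 0.14 (SE), with an unadjusted limma p of 0.312 and an adjusted p of 1.0. Without a lower bound on the variance of a count, limma passed Ptprc with an adjusted p of 0.0265, since each group has no spread at all. In the deposited lists the order turned, with 10, 14 and 18 peaks in untreated and 13, 19 and 21 in DTx libraries, a mean difference of 3.67 peaks. The region 25.8 kb inside the gene was in the equal-length lists of 3 untreated and 2 DTx libraries, and in all 6 deposited lists. In the equal-length lists, regions 29.1 and 11.6 kb inside the gene were in 2 against 1 and 1 against 0 libraries. A region 31.9 kb upstream was in 2 against 0. Regions 10.6 and 48.9 kb upstream went the other way, each in 2 untreated and 3 DTx libraries.

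**Figure D4:**
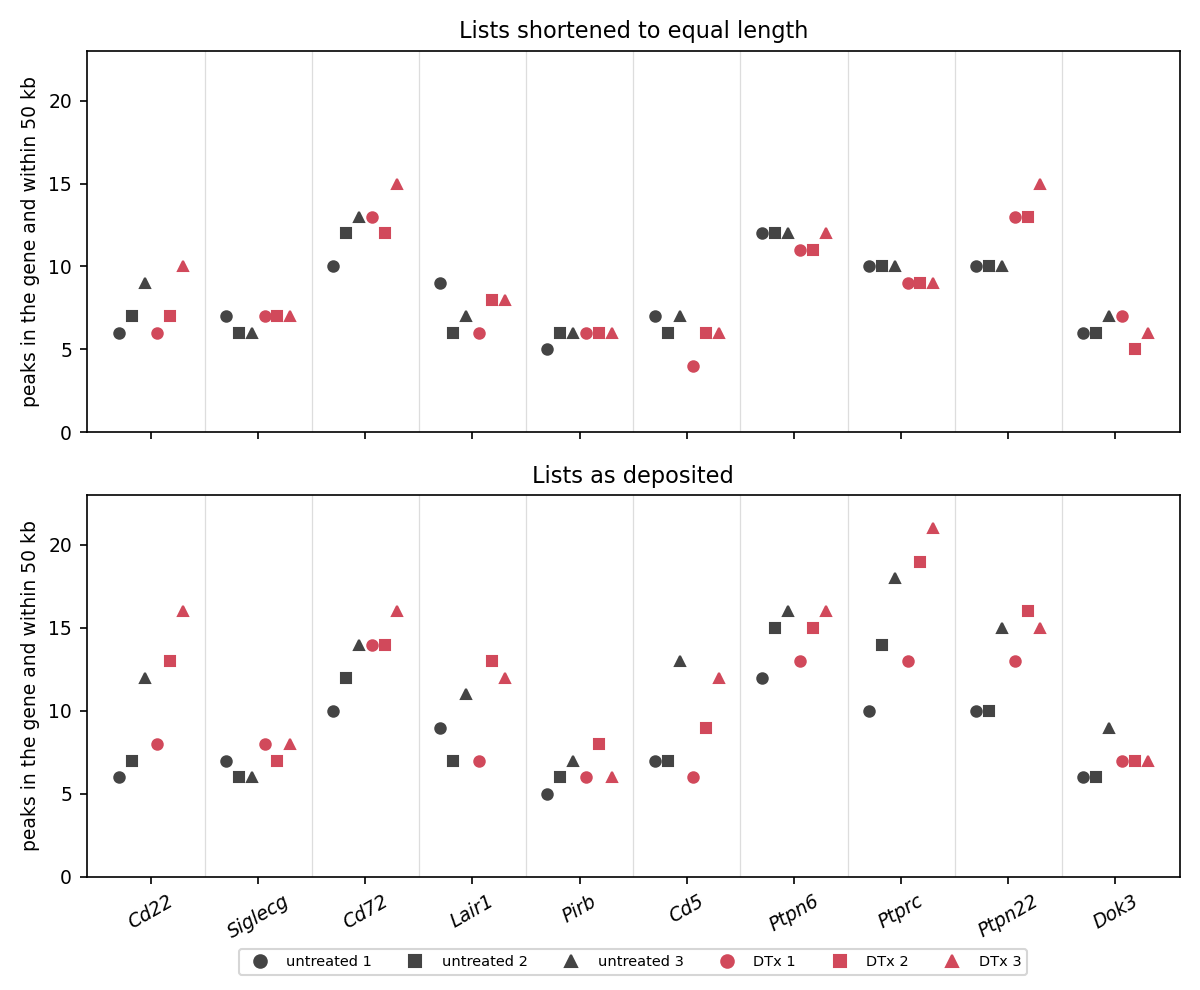
Number of peaks in each gene and within 50 kb of it (y axis), in lists shortened to the same 36760 peaks (upper panel) and as deposited (lower panel). Points are single libraries, grey for untreated and red for DTx. In the upper panel only Ptpn22 (10 against 13 to 15) and Ptprc (10 against 9) have groups that do not overlap, and in the lower panel no gene does.

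Covered bases separated the groups at Cd5 and Ptpn6, both with DTx lower, as 2.47% of all genes tested did. At Cd5 the peaks covered 4399, 3539 and 3704 bp in untreated and 1776, 2741 and 3344 bp in DTx libraries, a log2 difference of −0.56 ± 0.25 (SE) with an unadjusted limma p of 0.0359 and an adjusted p of 1.0. At Ptpn6 they covered 7418, 7618 and 9608 bp against 5851, 6358 and 6991 bp, a log2 difference of −0.34 ± 0.23 (SE), with an unadjusted limma p of 0.155 and an adjusted p of 1.0. In both genes DTx 1, a narrow-layout list, covered the fewest bases. Within the broad lists alone the DTx mean minus the untreated mean was −926.5 bp at Cd5 and −843.5 bp at Ptpn6. In the deposited lists the groups overlapped at both genes.

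**Figure D5:**
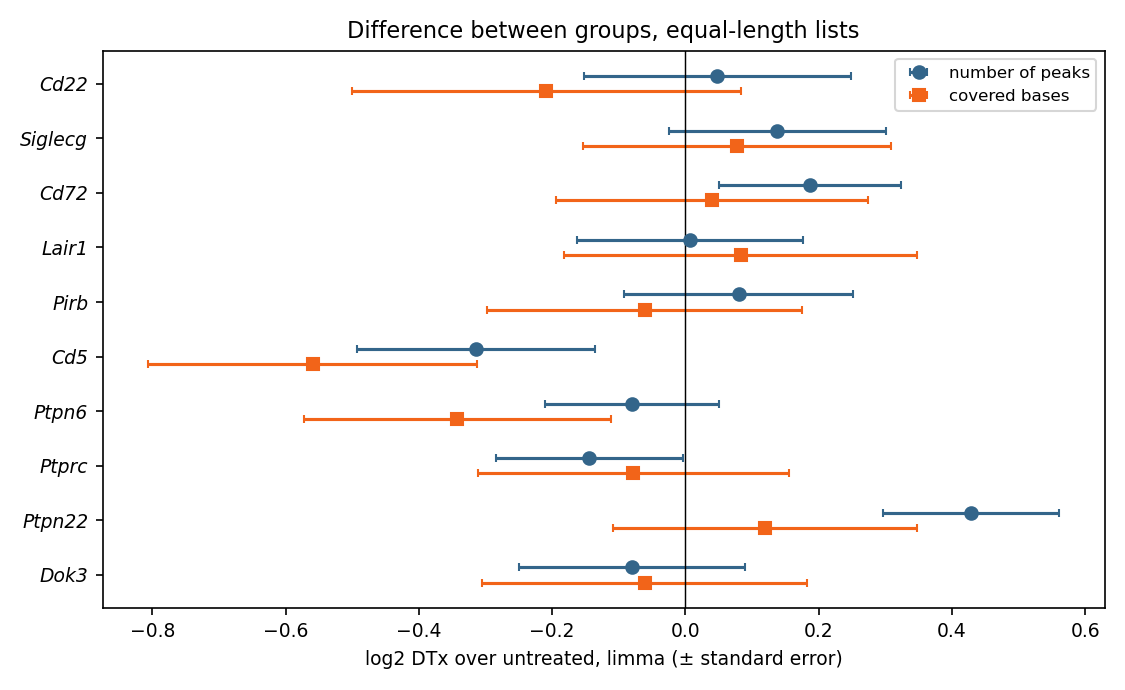
Log2 difference of DTx over untreated libraries (x axis, points, with bars of 1 standard error from limma) in the number of peaks (blue circles) and in the bases they cover (orange squares), in equal-length lists, for each gene (y axis). Ptpn22 has the highest value for peaks (0.43) and Cd5 the lowest for both, −0.31 and −0.56, and none of the 20 values passed the adjusted threshold.

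The strength of the regions was compared over the 30954 in all 6 libraries, ranked anew among themselves in each library. Every library thus ranks the same regions, but the list layout still differs between libraries. Layout was a covariate of the fit, and the ranks printed below are not corrected for it. None of the 70 in the windows of the 10 genes passed limma (lowest adjusted p 0.987), against 0.00323% of all shared regions, and 3 of the 70 had an unadjusted p under 0.05, against 1331 of 30954. The start-site region of Ptpn22, for example, ranked at 70.0, 75.6 and 64.0 in untreated and 58.6, 76.6 and 75.1 in DTx libraries.

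The 3 were 2 regions upstream of Ptpn22 and 1 downstream of Siglecg, chosen here for their p. The region 6.72 kb upstream of Ptpn22 (103852533-103853079) ranked at 72.3, 59.0 and 46.1 in untreated and 37.5, 49.6 and 34.6 in DTx libraries, a difference of −0.48 ± 0.18 normal scores (SE), with an unadjusted limma p of 0.0163 and an adjusted p of 0.987. The region 28.5 kb upstream, nearest to the start of Bcl2l15, differed in the other direction, by 0.74 ± 0.28 with an adjusted p of 0.987. The groups overlapped at both.

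Groups did not overlap in rank at 2 of the 70 shared regions, both with DTx higher, as at 3.97% of all shared regions; none was lower, against 4.77%. They were the region 1.92 kb upstream of Cd72, at 36.2, 41.9 and 37.5 in untreated and 50, 47.9 and 42.9 in DTx libraries, and a region 44.3 kb downstream of Siglecg, nearest to the start of Etfb, at 30, 35.4 and 38.6 against 53.5, 47.7 and 47.5. The limma difference was 0.21 ± 0.18 normal scores at Cd72 and 0.39 ± 0.18 at the Siglecg region, each with an adjusted p of 0.987.

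By presence alone, 1 of the 147 regions was in 3 of 3 DTx and 0 of 3 untreated lists, against 0.705% of all regions, and none in the reverse, against 0.0242%. It lay 29.5 kb upstream of Siglecg on chr7 (43378307-43378711), nearest to the start of Siglecf, another sialic acid receptor, with percentiles of 34.9, 43.5 and 43.0 in the DTx lists. In the equal-length lists 3 of the 147 were in 3 DTx and 0 untreated lists (0.255% of all regions) and none in the reverse (0.402%). These were the Siglecg region, the Ptpn22 region 18.5 kb upstream and a region 35.7 kb upstream of Lair1 (4098923-4099430), nearest to the start of Ttyh1. The last 2 had a peak in the deposited list of untreated 3, whose equal-length list kept only peaks of −log10 q of at least 19.7. No gene of the 10 had a gene-end peak in 3 libraries of one group and 0 of the other, against 0.0366% of all genes for DTx only and 0.00457% for untreated only. The mean number of the 10 genes with a gene-end peak was 9.33 ± 0.58 (SD, n = 3) in untreated and 9.0 ± 0.0 in DTx libraries, where the difference is the Ptpn22 peak of untreated 1.

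The lists of other genes of these pathways gave the setting. Of 18 other inhibitory receptors, 12 were listed with a gene-end peak in every library, against 49.2% of all protein-coding genes. The strongest were Btla, a receptor of the CD28 family on B and T cells, at the 90.8th percentile or higher, and Ctla4, at the 87.8th or higher, and Fcgr2b, the inhibitory Fc receptor of B cells, was at the 73.4th or higher. Pecam1, Siglecf, Cd33 and Cd160 had none. For Cd300a a peak was listed in 1 of 3 untreated but 3 of 3 DTx libraries, at the 22.7th to 58.8th percentile, and Tigit in untreated 1 only. None of the 15 with enough peaks to be tested passed the fit of peaks or of bases.

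Of 22 other phosphatases, kinases and adaptors, 19 were listed with a gene-end peak in every library, against 49.2% of all protein-coding genes. The ubiquitin ligase Cblb (99.3rd percentile or higher), the adaptor Shc1 (98.3rd or higher) and the RAS regulator Rasa1 (94.2nd or higher) stood highest, above every one of the 10 genes by their lowest value. Lyn, the kinase that phosphorylates ITIMs, was at the 65.5th to 85.1st percentile and Inpp5d, the lipid phosphatase SHIP1, at the 58.7th to 86.7th. Ptpn1 and Ubash3b had none, and Csk, which phosphorylates the site that CD45 clears, had one in 2 untreated and 3 DTx libraries. None of 21 tested passed the fit of peaks or of bases. The 1 with an unadjusted p under 0.05 was Ptpn11 (SHP2), named for that, at 4, 7 and 5 peaks in untreated and 7, 7 and 7 in DTx libraries (adjusted p 1.0).

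Of 7 genes for ligands and the enzymes that make them, 6 were listed with a gene-end peak in every library, against 49.2% of all protein-coding genes. The 6 include the MHC class I genes H2-K1 and H2-D1, ligands of PIR-B, at the 96.4th and 94.4th percentile or higher. St8sia4, a sialyltransferase that makes polysialic acid, was at the 92.6th or higher. B2m, the light chain of MHC class I, was at the 90.6th or higher. St6gal1, which makes the α-linked sialic acid that CD22 binds, was at the 42.7th to 81.5th and Sema4d, which encodes CD100, at the 50.2nd to 76.7th. Cmah, an enzyme of sialic acid synthesis, had none. None of the 7 passed either fit.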

How the data were processed

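The submitters' processing notes name Trim Galore 0.4.3, Bowtie2 2.3.2 with the mm10 build, and MACS2 2.1.1. Whether reads were shifted for the Tn5 cut or duplicates removed is not given in the sources used here. Per the file headers, the deposited lists give pileup (a coverage signal) and fold enrichment (a ratio) per peak. The −log10 p-value and −log10 q-value columns that the authors deposited have damaged headers and were identified from order and values. Each list's 2 mitochondrial peaks were not used.

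A peak was counted for a gene when it lay in the gene or within 50 kb. Strand and exons are not in the annotation. Gene-end peaks therefore lie within 1 kb of either end, and start sites came from the RefSeq promoter table. limma 3.58.1 in R 4.3.3 (trend, robust, list layout as covariate, a variance floor on peak counts) was fitted on log2(peaks + 0.5), log2(bp + 250) and normal scores of shared-region ranks, keeping genes that averaged at least 3 peaks, with Benjamini-Hochberg adjustment at 0.05, and tested on simulated data. On these log2 scales the difference of genes with few peaks is understated. The exact permutation test used the 20 relabellings. Other steps ran in Python 3.11.15 with pandas 2.3.3 and NumPy 2.4.6. The members and gene lists were chosen with earlier results of these data known. All members are named. From each other list, the rule names genes past a fit, genes whose gene-end calls differ by at least 2 libraries and, short of 3, those of highest lowest percentile. Genes named outside it, for their known role or because a count of 5 or fewer includes them, were chosen after their values were seen (among them Fcgr2b, Lyn, Inpp5d, St6gal1, Sema4d and B2m). Alternatives were other windows, thresholds, list lengths, covariates and left-out libraries. One marker gene of the B cell list is not reported here.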

Additional observations from a re-analysis of the deposited data

How the results depend on the processing

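With no read totals, depth is unknown, and weak peaks depend on the length of a list. The number of genes called for peaks was 0, and 4 with 10 kb windows, 2 with peaks of −log10 q of at least 5, 5 with genes of a mean of at least 1 peak, 116 without the variance floor, 1 with the replicate number as a block, and 0 to 70 without 1 library (70 without DTx 1, 55 without untreated 3). For covered bases it was 0, and 1 in the deposited lists, 2 with 100 kb windows, 10 with the replicate block, and 0 to 8 without 1 library. For shared-region ranks it was 1, and 0 with fold enrichment ranked or with −log10 q of at least 5, 2 with 50% of the region covered, 3 with the replicate block, and 0 to 8 without 1 library. Alternatives chosen after seeing the data were the broad lists alone (52 for peaks, 0 for ranks), no variance floor without the layout term (88) and, for single genes, 10 kb and 100 kb windows. Same-numbered libraries deviated together by 0.20, 0.05 and −0.03 (Pearson correlation over the shared regions, on normal scores centred within each group). Differently numbered pairs ranged from −0.31 to 0.32, so numbers were not taken to pair samples.

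Gene-end peaks in 3 of 3 against 0 of 3 numbered 9 over all genes, and 77 in equal-length lists, 16 at 2 kb and 5 with −log10 q of at least 5. Without 1 library they numbered 17 to 103, under a looser rule, since the group that lost a library needs only 2 of 2 or 0 of 2. The mean number of the 10 genes with a gene-end peak was 10 in both groups at 2 kb, and 5.0 (untreated) and 5.67 (DTx) when the peak had to reach over the end. No setting called any of the 10 genes for peaks or bases except Ptprc, called without the variance floor with and without the layout term (lowest adjusted p 0.0057 by limma). The Ptprc difference in peaks was −1.0 and reversed to 3.67 in the deposited lists. The peak difference was positive in 18 of 18 settings for Ptpn22 (lowest adjusted p 0.158 by limma) and for Cd72 (lowest 0.53).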
